A study of Homo sapiens with 4 samples.

Results

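The protein-coding genes of the cytosolic ribosome were followed in a neuroblastoma cell line under 4 treatments. Members were taken by name: symbols of the large-subunit (RPL) and small-subunit (RPS) series with a number and an optional A, X or L, together with RPLP0, RPLP1, RPLP2 and RPSA, leaving out pseudogenes and the RPS6K kinases. The rule found 81 of 60651 gene IDs, 49 of the large (60S) and 32 of the small (40S) subunit. It used names and gene types, and counts only to give a symbol held by several IDs to the ID with the most. CHP134, an established human neuroblastoma line with amplified MYCN, had been treated for 24 h with the vehicle DMSO at 0.04%, with 13-cis retinoic acid (13cRA, a differentiating retinoid) at 5 µM, with doxazosin (a blocker of alpha-1 adrenergic receptors) at 10 µM, or with the 2 drugs together at the same concentrations. Single cells gave full-length libraries on 1 nanowell chip. Each treatment has 1 sample, so the differences come with neither a replicate error nor a test.

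Cytosolic ribosomes translate nuclear-encoded mRNAs. Each holds ribosomal RNA and a single copy of nearly every ribosomal protein, and the genes are expressed together at high levels in growing cells. Their mRNAs begin with a cytosine followed by a run of pyrimidines, the 5′ terminal oligopyrimidine (TOP) tract, through which mTOR signalling and the RNA-binding protein LARP1 control their translation. MYC family factors, MYCN among them in neuroblastoma, drive transcription of ribosomal protein genes and of the nucleolar genes that assemble ribosomes.

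Pyrimidine runs are shown around the annotated transcription start of members that the results below turn on. Each window holds 30 bases of the GRCh38.p14 assembly from the RefSeq promoter table, read 5′ to 3′ on the gene's own strand, with 15 bases before the start and 15 from the start on. Capitals mark the longest pyrimidine run that touches the window, and the runs of RPL15 and of RPL10 extend past the window's edge. Those 2 runs do not lie at the annotated start: that of RPL10 ends before it and that of RPL15 begins at base 11 of the transcript. The first 5 had some of the highest differences in the cells treated with 13cRA alone, RPL13A was the highest in the combination against doxazosin, and RPL29, RPL15 and RPL10 were among the lowest.
RPL34: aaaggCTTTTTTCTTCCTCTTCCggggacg
RPS12: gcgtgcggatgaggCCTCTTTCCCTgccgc
RPS24: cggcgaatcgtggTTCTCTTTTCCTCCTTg
RPLP2: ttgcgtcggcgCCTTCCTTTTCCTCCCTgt
RPS21: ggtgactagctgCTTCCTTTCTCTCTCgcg
RPL13A: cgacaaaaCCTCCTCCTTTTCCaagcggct
RPL29: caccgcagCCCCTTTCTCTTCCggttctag
RPL15: cccaaaaggcattgtgggagtacagCTCTT
RPL10: TTTTTCCactctcagaaatatacgtctgtc
The paralogs RPL10L and RPS27L are shown as members with a short run.
RPL10L: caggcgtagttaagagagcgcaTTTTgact
RPS27L: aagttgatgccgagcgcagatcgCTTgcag

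The windows lie at chr4:108620561-108620590 (plus strand) for RPL34, chr6:132814554-132814583 (plus) for RPS12, chr10:78033848-78033877 (plus) for RPS24, chr11:809952-809981 (plus) for RPLP2 and chr20:62387088-62387117 (plus) for RPS21. RPL13A is at chr19:49487593-49487622 (plus), RPL29 at chr3:51995881-51995910 (minus), RPL15 at chr3:23917117-23917146 (plus), RPL10 at chrX:154398050-154398079 (plus), RPL10L at chr14:46651767-46651796 (minus) and RPS27L at chr15:63157463-63157492 (minus). Each window spans upstream sequence and the first bases of the annotated first exon.

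The promoter table held 64 of the 81 members, in 79 entries, and for a gene with several entries the entry with the longest run was used for the run, while motifs counted in any entry. A run of at least 8 pyrimidines touched the window in 56 of the 64 members (87.5%), against 22.5% of 27305 genes in the table and 24.1% of the 4930 of them with a mean of at least 20 CPM, the counts scaled to a library total of 1000000, here. The median longest run was 12 bases in the members and 5 in all genes. A transcript start at a C followed by 4 pyrimidines was annotated in 46 members (71.9%) and in 5.14% of all genes. The motif CTTTCC lay in the window on the gene's strand in 19 members (29.7%) and 1.98% of all genes, and its reverse complement GGAAAG in 1 member (1.56%) and 1.48% of all genes. Genes of the mitochondrial ribosome, which makes the few proteins encoded in mitochondria, held a run of at least 8 in 11 of 74 (14.9%). Among members that could be compared, the 54 with a run of at least 8 and the 7 with a shorter one had median log2 differences of 0.20 and 0.26 for 13cRA against DMSO. For the combination against doxazosin the medians were 0.14 and 0.13. A match describes these letters and is not evidence of a regulated start.

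The kept cells numbered 353 DMSO, 318 13cRA, 239 doxazosin and 287 combination cells, with total counts of 22636509 to 72192743 per library. The 13cRA library stood apart. Its cells had a median of 59200.5 counts, where DMSO had 122615, doxazosin 171793 and the combination 221558, and after each cell was thinned to 34000 counts they held a median of 3884 genes, against 4680.5, 4782 and 4703.5. Mitochondrially encoded mRNAs took 8.70% of its counts and 5.51 to 5.72% of the others, the nuclear RNA MALAT1 stood at 2330 CPM against 981 to 1245, and the glycolytic GAPDH at 1419 CPM against 2959 to 3763. All 13 mitochondrially encoded mRNAs were higher with 13cRA than with DMSO (median log2 difference 0.65) and 1 of 12 housekeeping genes was (median -0.50). The part of these features in the results for 13cRA was not tested, so the medians over members are also given for cells matched in counts or in detected genes. The labelled line was borne out by most of its markers. Of 10 neuroblastoma markers, 7 had a mean of at least 20 CPM, and the list summed to 1596 to 2219 CPM. MYCN, itself on that list, held 759 to 1168 CPM of these sums. Summed marker lists of Schwann cells, fibroblasts, leukocytes, endothelium and epithelium were at 0.277 to 22.4 CPM, highest for the endothelial list in 13cRA (22.4 CPM, against 1.27 in DMSO), and each marker had a count in at least 1 library. No cell name occurred in more than 1 library.

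Ribosomal protein mRNAs were among the most abundant in every library. Summed over the 81 members, their share of all counts was 7.86% for DMSO, 9.13% for 13cRA, 7.87% for doxazosin and 8.75% for the combination. The 2 libraries with 13cRA were therefore above the other 2, and doxazosin alone lay at the DMSO level. The exact 95% binomial intervals (Clopper-Pearson) were 7.85 to 7.87, 9.12 to 9.15, 7.86 to 7.88 and 8.75 to 8.76% and cover counting error only, since the reads carry no molecular identifiers and copies of 1 molecule are counted apart. Members of the 60S subunit took 4.75, 5.41, 4.81 and 5.29% in that order, and those of the 40S subunit 3.11, 3.73, 3.06 and 3.47%, so that the ratio of 60S to 40S counts was 1.52, 1.45, 1.57 and 1.52. Ribosomal protein pseudogenes, whose near-identical sequence can take reads from the genes, held 1.22 to 1.25% of the reads of genes and pseudogenes together in every library.

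Over single cells the libraries with 13cRA were again above those without it, by a smaller gap, and the order within each pair was not the same in every measure. With each cell thinned to 34000 counts the median share was 7.47% in 328 DMSO cells (quartiles 7.02 and 8.33), 7.99% in 249 13cRA cells (7.27 and 9.16), 7.46% in 235 doxazosin cells (6.95 and 8.19) and 7.97% in 270 combination cells (7.32 and 8.91). Without thinning the medians over all kept cells were 7.47, 8.06, 7.46 and 8.12%. The distributions overlapped widely: 67.5% of 13cRA cells and 68.1% of combination cells lay above the DMSO median, and 48.1% of doxazosin cells. The upper tail differed too, since 20.1% of 13cRA cells and 16.7% of combination cells exceeded the 90th percentile of DMSO (9.52%), against 6.81% of doxazosin cells. The highest cells reached 17.6% (DMSO), 31.5% (13cRA), 14.8% (doxazosin) and 24.8% (combination). Shallower cells dropped by the thinning numbered 25, 69, 4 and 17 in that order.

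**Figure D1:**
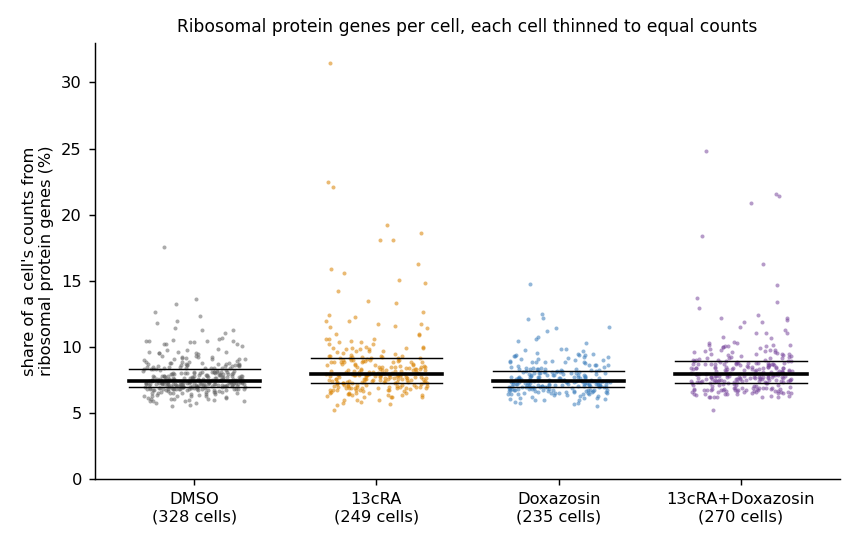
Share of each cell's counts that came from the 81 ribosomal protein genes (vertical axis, percent), with every cell thinned to 34000 counts. Points are cells, the thick line is the library's median and the thin lines its quartiles. The medians of 13cRA (7.99%) and of the combination (7.97%) lie above those of DMSO (7.47%) and doxazosin (7.46%), and the clouds overlap.

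Within each library, cells with more of their counts in these genes tended to have fewer detected genes. Spearman's rho of the thinned share with the number of detected genes was -0.33, -0.14, -0.40 and -0.43 in the same order, over the cell numbers above. Both quantities come from the same counts of a cell, so the relation is a description only. Cells above the DMSO 90th percentile held a median of 4271 genes in DMSO against 4713 in the rest, and 3450 against 3941 in 13cRA. Restricted to cells with 4000 to 4600 detected genes, the median share was 7.64% in 102 DMSO cells, 7.91% in 94 13cRA cells, 7.75% in 38 doxazosin cells and 8.39% in 78 combination cells. Among these matched cells the combination was the highest, where 13cRA and the combination had been close among all thinned cells, and the gap between 13cRA and DMSO was narrower than among all cells.

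Levels of single members, paralogs among them, spanned a wide range. Of the 81 members, 76 had a mean of at least 20 CPM over the 4 libraries and entered the comparisons, and 71 had a count in at least 95% of thinned cells of every library. Per kilobase of annotated transcript the highest mean levels were 5508 for RPS18, 5457 for RPS15, 4382 for RPL19, 4359 for RPL38 and 3814 for RPS3 (CPM per kilobase), the last lying at the mRNA entry channel of the small subunit. The lowest among the 76 were 12.9 for RPS27L, 41.5 for RPL22, 52.8 for RPL37, 72.1 for RPL17 and 141 for RPL28. For 3 of them the value depends on the transcript chosen, since the annotated transcript used was 7686 bases for RPL37, 6434 for RPS27L and 2078 for RPL22, against 613 for RPS18. The transcripts of RPL17 (669 bases) and RPL28 (852) were not of such length.

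The 5 members below 20 CPM were of different kinds. RPL10L, an intronless testis paralog of RPL10, had no count in DMSO, 13cRA or doxazosin and 1 count in the combination, and a count of 0 allows up to 0.0623, 0.133 and 0.065 CPM in the first 3 libraries. RPL3L, the paralog of RPL3 in heart and skeletal muscle, had 15, 29, 11 and 44 counts, or 0.311, 1.28, 0.238 and 0.609 CPM. The other 3 are members whose annotated transcript is mostly covered by exons of another gene on the same strand, among them RPS10 by RPS10-NUDT3 (84.0%) and RPL36A by RPL36A-HNRNPH2 (77.6%). In the order DMSO, 13cRA, doxazosin and combination, used from here on, RPS10 had 3.16, 5.79, 4.44 and 3.20 CPM and RPL36A 6.96, 11.4, 8.32 and 6.79. RPL17, covered to 91.0% by RPL17-C18orf32, was the only other member above 75% overlap and had the lowest mean above the minimum, 48.3 CPM, where the 70 members with no overlap on their strand had a median of 1011 CPM. The readthrough genes RPL17-C18orf32, RPS10-NUDT3 and RPL36A-HNRNPH2 had at most 1.49, 0.221 and 0.097 CPM themselves. Levels of members with such overlap are uncertain, because the treatment of reads shared between genes is not given in the sources used here.

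With 13cRA alone, most members were higher than in DMSO and a few were lower. Of the 76 members, 64 were higher, where 44.4% of all 5955 genes tested were. Their median log2 difference, taken of CPM + 1, was 0.20 (quartiles 0.08 and 0.32), against -0.07 for all genes. At least 1.5-fold higher were 4 members, RPL34, RPS12, RPS24 and RPLP2, where 9.69% of all genes were, and 1 member, RPL17, was at least 1.5-fold lower, where 13.1% of all genes were. Most members thus lay on the higher side by less than 1.5-fold. For 40S members the median was 0.26 (27 of 30 higher) and for 60S members 0.17 (37 of 46 higher).

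This direction depended on the scaling. With TMM factors the median of the members was -0.13 and that of all genes -0.40, and 16 of 76 members (21.1%) were higher, where 20.2% of all genes were. With DESeq2 size factors the medians were -0.09 and -0.36, and 23 of 76 members (30.3%) were higher, where 22.6% of all genes were. The distance between the medians of members and of all genes was 0.27 with totals, and it is nearly fixed under these scalings, which shift all genes of a library alike. In cells with 34000 to 120000 counts the distance was 0.13 and the members' own median 0.07. There 45 of 76 members (59.2%) were higher, where 43.7% of all genes were. In cells with 4000 to 4600 detected genes the distance was 0.03 and the median 0.02. There 41 of 76 members (53.9%) were higher, close to the 49.4% of all genes.

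RPL34, a protein of the large subunit, was at 816 CPM with DMSO, 1296 with 13cRA, 862 with doxazosin and 1022 with the combination. It was highest in 13cRA, 1.59-fold above DMSO (log2 difference 0.67), and the combination lay between 13cRA and the libraries without it. RPS12, of the 40S beak, stood at 546, 855, 536 and 656 CPM in the same order, with a log2 difference of 0.65 between 13cRA and DMSO. RPS24, one of the genes mutated in Diamond-Blackfan anaemia, was at 606, 941, 673 and 714 CPM, a difference of 0.63. These 3 genes shared one order, with the 13cRA library highest and the combination second.

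RPLP2, a stalk protein that recruits translation factors to the large subunit, was at 750, 1139, 713 and 817 CPM, a log2 difference of 0.60 between 13cRA and DMSO. The other stalk proteins differed less: RPLP0, the anchor of the stalk, was at 2369, 2223, 2450 and 2546 CPM (-0.09) and RPLP1 at 1144, 1173, 1179 and 1344 CPM (0.04). RPS21 of the small subunit stood at 638, 934, 609 and 669 CPM (0.55). The 95% Poisson interval of these levels, counting error only, reached to either side by at most 7.34% of the CPM for any of the 76 members (RPL17) and 0.991% at the median. A difference such as the 0.60 of RPLP2 exceeds this error of read counts. Since reads carry no molecular identifiers, the error in counting molecules can be larger. The interval says nothing of the spread between cells or samples.

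At the other end, RPL17 was at 54.6, 32.1, 56.8 and 49.5 CPM, a log2 difference of -0.75 between 13cRA and DMSO with the overlap named above. RPL30 was at 324, 256, 342 and 323 CPM (-0.34), with 47.1% of its transcript covered on the opposite strand by RPL30-AS1, whose reads cannot be told apart without stranded counting. RPL29 stood at 514, 432, 543 and 560 CPM (-0.25) and RPL15, of the large subunit, at 1203, 1028, 1323 and 1399 CPM (-0.23). RPL10, which is added in the last steps of 60S assembly, was at 1586, 1367, 1558 and 1636 CPM (-0.21), with 46.7% opposite-strand overlap. The 13cRA library was the lowest of the 4 for each of these 5 genes. RPL39L, a paralog of RPL39 that is raised in testis and in cancers, was the sixth lowest at 104, 95.4, 100 and 93.0 CPM (-0.12).

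**Figure D2:**
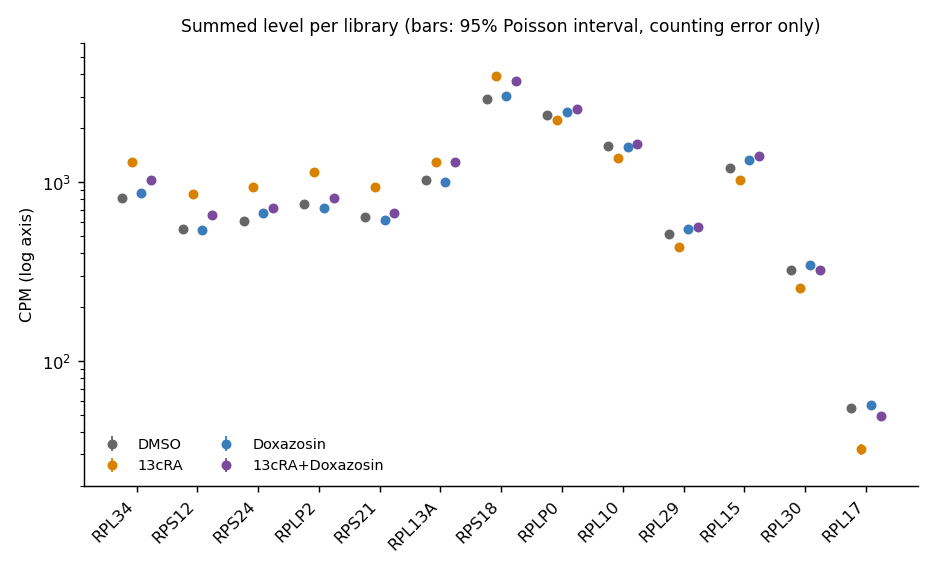
Summed level of 13 named members (horizontal axis) in each library (CPM on a log axis, coloured by treatment). Bars are 95% Poisson intervals, mostly smaller than the points. From RPL34 to RPS21 the 13cRA library is highest, and from RPLP0 to RPL17 it is lowest.

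Some members kept their sign over all 12 ways of processing the counts. The 12 include the processing reported above, and the setting without a minimum level repeats its values gene by gene. The pseudocount of 5 cannot change the sign of a difference between libraries either, so fewer than 12 settings could differ in sign. For 13cRA against DMSO, 14 members were higher in all 12 (among them RPL11, RPL12, RPL21, RPL23, RPL34, RPL36, RPL37, RPLP2, RPS12, RPS18, RPS21, RPS24 and RPS29), which is 18.4% of 76 where all genes gave 16.9%. Lower in all 12 were 7 members (RPL10, RPL15, RPL17, RPL29, RPL30, RPLP0 and RPS15), or 9.21% against 33.6% of all genes. The lowest values of the log2 difference over these processings were 0.30 for RPS24, 0.27 for RPL34, 0.25 for RPS12 and 0.18 for RPLP2. RPL17, RPL29, RPL15 and RPL10 ranged up to no higher than -0.39, -0.20, -0.18 and -0.17. The spread among members was widest in the comparisons that hold the 13cRA library, with an SD over members of 0.24 for 13cRA against DMSO and 0.21 for the combination against 13cRA. It was 0.09 for doxazosin, 0.10 for the combination against DMSO and 0.10 against doxazosin. All genes had the same pattern, with quartiles of -0.39 and 0.25 for 13cRA against DMSO and -0.26 and 0.37 for the combination against 13cRA. Their quartiles were -0.17 and 0.14 for doxazosin, -0.21 and 0.18 for the combination against DMSO and -0.19 and 0.18 against doxazosin.

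With both drugs, the members were higher than with the vehicle or with doxazosin by a small and more even amount. Against doxazosin, 69 of 76 were higher, where 48.8% of all genes were, with a median of 0.14 against -0.01 for all genes. Against DMSO, 69 of 76 were higher, where 48.1% of all genes were, with a median of 0.15 against -0.01. No member passed 1.5-fold in either direction, where 5% of all genes were at least 1.5-fold higher and 3.51% lower against doxazosin, and 4.95% higher and 4.03% lower against DMSO. Both comparisons share the combination library, so their values are not independent.

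Unlike the median for 13cRA alone, these medians stayed above 0 in all processings tried: between 0.05 (DESeq2 size factors) and 0.16 (mean of per-cell CPM) against doxazosin, and between 0.10 and 0.15 against DMSO. In cells with 4000 to 4600 detected genes the median against doxazosin was 0.07 (59 of 76 higher, or 77.6%, all genes 47.4%). Against DMSO it was 0.10 (60 of 76 higher, or 78.9%, all genes 46.9%). In cells with 34000 to 120000 counts the medians were 0.12 against both. Of the 76 members, 45 were higher than in doxazosin in all 12 processings (59.2%, where all genes gave 16.5%) and 49 were higher than in DMSO (64.5%, all genes 21.5%).

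RPL13A, known also for silencing translation after interferon signalling, was at 1026, 1288, 993 and 1287 CPM. It was the highest member against doxazosin (0.37) and stood equally high in both libraries with 13cRA. RPS16 was at 657, 717, 580 and 720 CPM (0.31), RPL23 at 1464, 2036, 1455 and 1798 CPM (0.31) and RPL27A at 899, 1127, 914 and 1122 CPM (0.30). RPS12 (0.29), described above, was also among the 6 highest. Over the processings tried, RPL13A stayed between 0.21 and 0.37 and RPS16 between 0.20 and 0.31 against doxazosin.

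Against DMSO the highest in the combination were RPS18 (2910, 3892, 3041 and 3664 CPM in the 4 libraries, 0.33), RPL13A (0.33), RPL34 (0.32), RPL26 (0.32), RPL27A (0.32) and RPL23A (0.32). RPL26, which also binds the mRNA of p53, was at 278, 315, 318 and 349 CPM and has 65.3% same-strand overlap. RPL23A was at 1226, 1331, 1353 and 1526 CPM. The lowest against DMSO were RPL39L (-0.16), RPL17 (-0.14), RPS2 (-0.06), RPL7A (-0.01), RPS26 (-0.01) and RPL30 (-0.01). Against doxazosin they were RPL17 (-0.20), RPS27L (-0.15), RPL39L (-0.10), RPL30 (-0.08), RPS13 (-0.04) and RPL38 (-0.03).

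**Figure D3:**
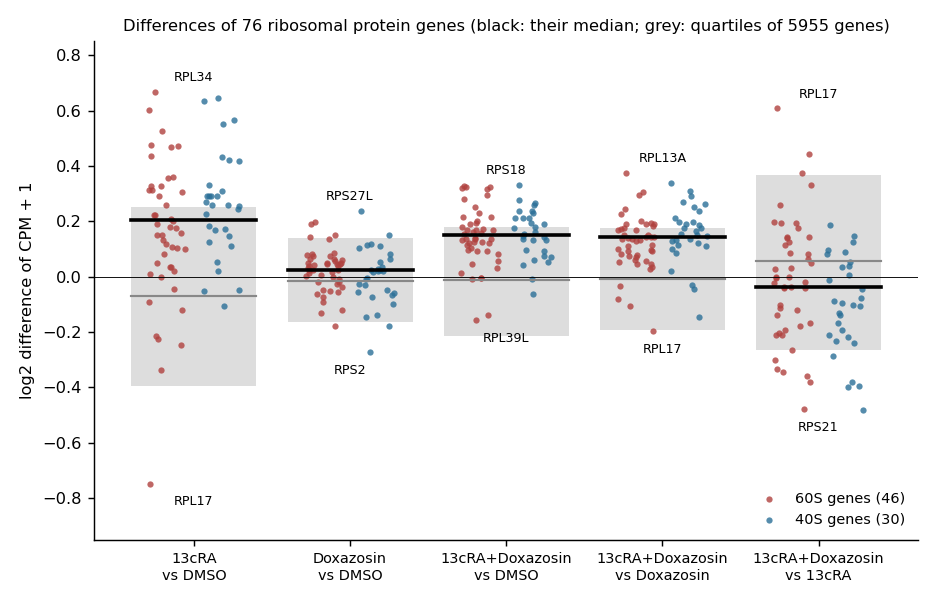
Log2 difference of CPM + 1 (vertical axis) of the 76 members in 5 comparisons (horizontal axis), with 60S genes in red and 40S genes in blue, their common median in black and the quartiles and median of 5955 genes in grey. Most members lie above 0 with 13cRA alone (64), and in both comparisons of the combination with a library without 13cRA (69). They are spread widest with 13cRA alone, where the grey quartiles also lie far apart.

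The difference with 13cRA can be set side by side without and with doxazosin, in comparisons that share no library. Over the 76 members Pearson's r was 0.62 and Spearman's rho 0.61, and over all 5955 genes 0.54 and 0.38. Points in each case are genes of the same 4 libraries, made on 1 chip and differing in depth, so these are descriptions across genes that are not independent. In cells with 4000 to 4600 detected genes rho over the members was 0.29. In both backgrounds 61 of 76 members were higher with 13cRA (80.3%, all genes 28.3%), and 4 were lower (RPL17, RPL30, RPL39L and RPS26). The share of all genes lower in both backgrounds was not counted, so these 4 are a list of genes only. Both 13cRA libraries lay above both others for 52 members (68.4%), where this held for 19.3% of all genes, and below both others for 4 (5.26%), where it held for 24.4%. A log2 difference of at least 0.25 in both backgrounds was reached by 8 of 76 members (10.5%), among them RPL13A, RPL23, RPL27A, RPS9, RPS12 and RPS18. The share of all genes that reached it was not counted, so this is a list of genes only.

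**Figure D4:**
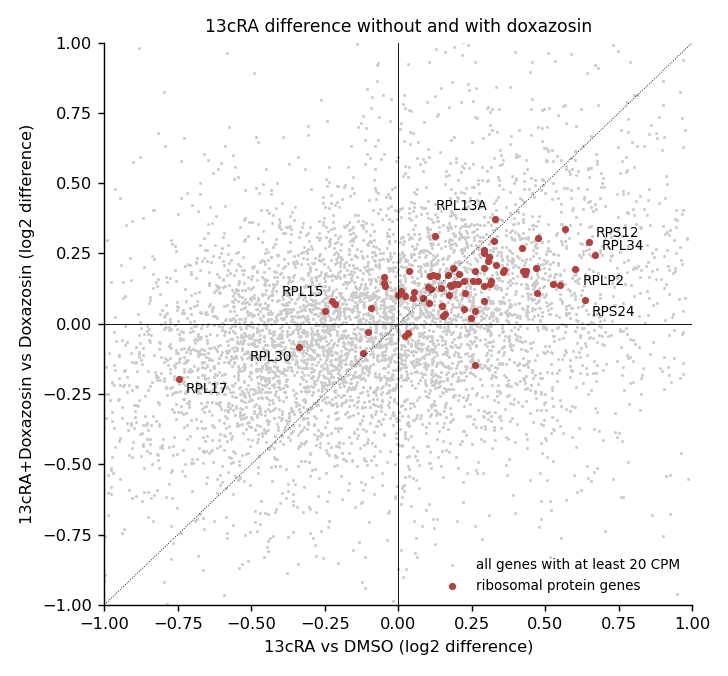
Log2 difference of 13cRA against DMSO (horizontal) and of the combination against doxazosin (vertical) for 76 ribosomal protein genes (red) and all genes with at least 20 CPM (grey), with 351 genes beyond the axes. Red points lie mostly in the upper right and below the dotted line of equal differences.

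Doxazosin alone left the members close to DMSO. Of 76, 48 were higher, where 47.1% of all genes were, with a median of 0.02 against -0.02 for all genes. None passed 1.5-fold, where 1.63% of all genes were at least that much higher and 1.21% lower. RPS27L, a paralog of RPS27 that p53 can induce, had the highest difference, at 74.6, 89.5, 88.1 and 79.6 CPM (0.24). RPL7 (0.20), RPL26 (0.19), RPS24 (0.15), RPL10A (0.15) and RPL23A (0.14) followed.

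RPS2, a protein of the decoding side of the small subunit, had the lowest, at 2252, 2833, 1863 and 2156 CPM (-0.27), and it was lower with doxazosin both without and with 13cRA. RPL13 stood at 1433, 1655, 1265 and 1430 CPM (-0.18), RPSA, which also serves as a laminin receptor precursor, at 1022, 1224, 924 and 1053 CPM (-0.15), and RPS3 at 3166, 3871, 2876 and 3299 CPM (-0.14). RPS16 (-0.18) and RPL35 (-0.13) were the other 2 of the 6 lowest. When doxazosin was added to 13cRA, RPS2 differed by -0.39, RPL13 by -0.21, RPSA by -0.22 and RPS3 by -0.23. With scaling to totals, all 4 genes had their lowest level in the doxazosin library and their highest in the 13cRA library. All 4 were lower with doxazosin than with DMSO in all 12 processings. For the combination against 13cRA this held for RPS2 only, and the sign for RPL13, RPSA and RPS3 depended on the processing.

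Between the combination and 13cRA alone, 30 of 76 members were higher, where 54.6% of all genes were, with a median of -0.04 against 0.06 for all genes. RPL17 was at least 1.5-fold higher (0.61), where 12.8% of all genes were, and no member was at least 1.5-fold lower, where 9.15% were. RPL15 (0.44), RPL29 (0.37), RPL30 (0.33), RPL10 (0.26) and RPL23A (0.20) followed at the top. RPS21 (-0.48), RPLP2 (-0.48), RPS24 (-0.40), RPS2 (-0.39), RPS12 (-0.38) and RPL37 (-0.38) were lowest. These are largely the genes at either end of the comparison of 13cRA with DMSO, with which this one shares the 13cRA library. The median was 0.27 with TMM factors, 0.21 with DESeq2 size factors, 0.07 in cells matched in counts and 0.11 in cells matched in detected genes.

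The departure from additivity is the log2 difference of the combination from doxazosin less that of 13cRA from DMSO. It was above 0 for 27 of 76 members, where 56.9% of all genes were, with a median of -0.07 against 0.07. It was highest for RPL17 (0.55), RPL15 (0.31) and RPL29 (0.29) and lowest for RPS24 (-0.55), RPL34 (-0.42) and RPS21 (-0.41). The median was 0.09 in cells with 4000 to 4600 detected genes and 0.23 with TMM factors, so its sign depended on the processing.

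**Figure D5:**
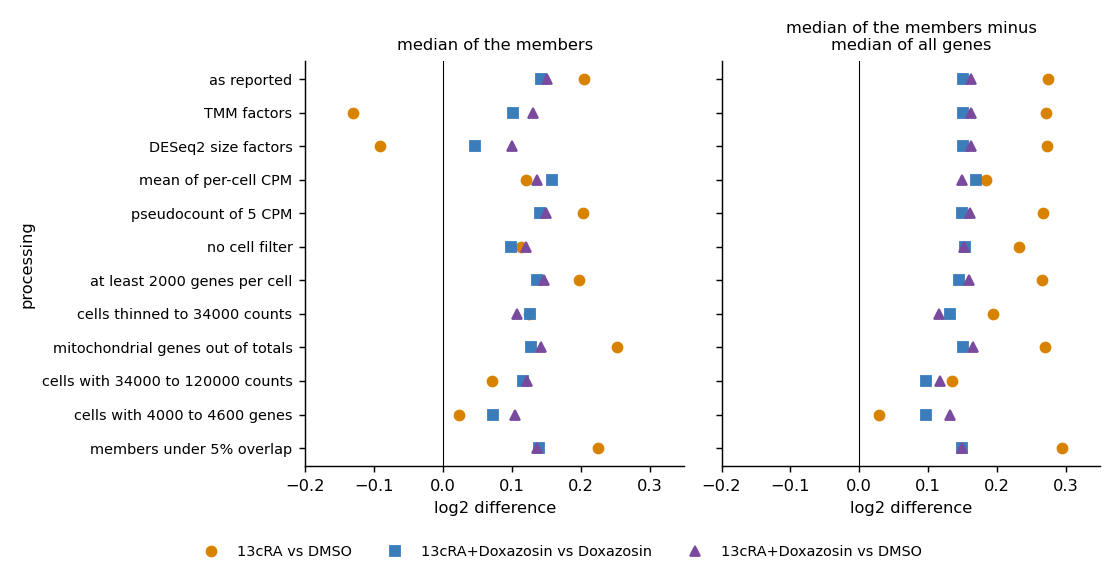
Median log2 difference of the members (left) and the same minus the median of all genes (right) for 3 comparisons under 12 ways of processing (rows). For 13cRA against DMSO (orange) the left-hand value falls below 0 with TMM and DESeq2 scaling, and the right-hand one falls from 0.27 to 0.03 in cells matched in detected genes, where the combination keeps 0.10 against doxazosin and 0.13 against DMSO.

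Other members with known roles fell inside these ranges. RPL5 and RPL11, which with 5S rRNA bind MDM2 and so stabilise p53 when ribosome assembly fails, were at 1248, 1322, 1315 and 1402 CPM and at 1336, 1851, 1280 and 1470 CPM, with log2 differences of 0.08 and 0.47 for 13cRA against DMSO. RPS6, the substrate of the S6 kinases, was at 1889, 2339, 1879 and 2217 CPM (0.31), and was at least 0.09 higher in the combination than in doxazosin in every processing. RPS27A, made as a fusion with ubiquitin, was at 1054, 1272, 1073 and 1192 CPM (0.27), and RPS4X, whose gene escapes X inactivation, at 1201, 1472, 1225 and 1345 CPM (0.29). RPL3, near the peptidyl transferase centre, was at 2936, 3163, 2941 and 3309 CPM (0.11), and RPL41, the smallest ribosomal protein, at 449, 498, 476 and 486 CPM (0.15). RPS6 and RPS27A were higher in both 13cRA libraries than in the other 2, as were RPS4X, RPL3, RPL5, RPL11 and RPL41. Among these genes only RPL11 was higher with 13cRA than with DMSO in all 12 processings, so the sign for the rest depended on the processing.

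Paralogs were compared as pairs. RPL39, which lines the exit tunnel, was at 157, 162, 161 and 172 CPM beside the 104 to 93.0 CPM of RPL39L, and per kilobase their means were 406 and 150. RPL22 was at 82.6, 92.4, 84.1 and 86.1 CPM and its paralog RPL22L1 at 97.8, 119, 98.6 and 99.6 CPM. RPS27 was at 591, 793, 601 and 685 CPM, with 0.42 for 13cRA against DMSO, where RPS27L had 0.26. In cells with 4000 to 4600 detected genes these became -0.15 for RPS27 and -0.35 for RPS27L.

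Of 7 ribosomal protein genes that the name rule leaves out, 5 were higher with 13cRA than with DMSO (median 0.19) and 6 were higher in the combination than in doxazosin (median 0.09). All genes were higher in 44.4% and 48.8% of cases, in that order. FAU, whose product is cut to give a 40S protein, was at 544, 478, 552 and 528 CPM. RACK1, a scaffold on the 40S head, was at 2576, 2354, 2474 and 2627 CPM. FAU and RACK1 were lower in 13cRA than in DMSO, with -0.19 and -0.13.

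Other TOP mRNAs, mostly elongation and initiation factors, lay nearer to 0 than the members with 13cRA alone. Of 22 measured, 11 were higher with 13cRA than with DMSO (median 0.01, all genes -0.07 with 44.4% higher). In the combination against doxazosin 15 were higher (median 0.08, all genes -0.01 with 48.8% higher). EEF1A1, the carrier of aminoacyl-tRNA, was at 4826, 3977, 4849 and 5110 CPM, EEF2, the translocase, at 379, 446, 377 and 422 CPM, and TPT1 at 470, 615, 512 and 580 CPM. The difference of 13cRA against DMSO was -0.28 for EEF1A1, 0.23 for EEF2 and 0.39 for TPT1. The lowest was EIF3L at 227, 109, 242 and 262 CPM (-1.06).

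Noncoding host genes of small nucleolar RNAs, which also start with TOP tracts, had a median of 0.47 for 13cRA against DMSO (7 of 9 higher, 2 of them at least 1.5-fold) and 0.05 for the combination against doxazosin. For 13cRA against DMSO, 44.4% of all genes were higher and 9.69% at least 1.5-fold higher. GAS5 was at 187, 333, 186 and 212 CPM and SNHG5 at 49.7, 112, 50.0 and 63.8 CPM. Both were highest in the 13cRA library.

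Regulators of ribosomal protein genes were measured from lists chosen with earlier results of these data known. MYCN was at 760, 1168, 759 and 815 CPM (0.62 for 13cRA against DMSO, 0.10 for the combination against doxazosin) and MYC at 0.415, 0.177, 1.49 and 0.388 CPM. MTOR was at 102, 103, 94.0 and 101 CPM, LARP1 at 255, 237, 229 and 204 CPM, and EIF4EBP1, a translational repressor, at 207, 167, 187 and 163 CPM. Of 12 measured genes of mTOR and TOP control, 3 were higher with 13cRA (median -0.21) and 3 in the combination against doxazosin (median -0.16). All genes were higher in 44.4% and 48.8% of cases. Past 1.5-fold with 13cRA alone were 9.69% of all genes on the higher side and 13.1% on the lower. With 13cRA alone 1 was at least 1.5-fold higher, DDIT4, an mTOR inhibitor, at 79.4, 147, 105 and 169 CPM. Lower by at least 1.5-fold were 3, among them EIF4E, the cap-binding protein, at 183, 94.3, 214 and 184 CPM.

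Genes of nucleolar ribosome biogenesis had medians of 0.12 for 13cRA (15 of 25 higher, 3 at least 1.5-fold) and -0.02 for the combination against doxazosin (12 of 25). All genes, as the background for each list here, were higher in 44.4% and 48.8% of cases. With 13cRA alone 9.69% of them were at least 1.5-fold higher. FBL, the rRNA methyltransferase, was at 270, 497, 217 and 242 CPM and NCL at 1293, 1433, 1040 and 999 CPM. NCL was lower in both libraries with doxazosin than in both without it, with differences of -0.31 without and -0.52 with 13cRA. Of chaperones and importers of ribosomal proteins, 4 of 13 were higher with 13cRA (median -0.12) and 7 of 13 in the combination against doxazosin (median 0.02). Of the ribosomal stress and p53 list, 4 of 8 were higher in each of these comparisons. CDKN1A was at 73.1, 49.9, 86.4 and 61.3 CPM and MDM2 at 57.3, 60.8, 72.9 and 67.2 CPM.

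The mitochondrial ribosome and the respiratory chain served as the nearest other groups of small, highly expressed genes. Of 71 measured mitochondrial ribosomal proteins, 18 were higher with 13cRA than with DMSO (median -0.15), and 37 were higher in the combination than in doxazosin (median 0.01). Of 75 nuclear subunits of oxidative phosphorylation, 35 and 58 were higher, with medians of -0.05 and 0.10. All genes were higher in 44.4% and 48.8% of cases. The cytosolic members, at 0.20 and 0.14, lay above both groups in both comparisons, a difference that has no test. These medians are over all kept cells. In cells with 4000 to 4600 detected genes the members' medians were 0.02 and 0.07, and the other groups were not compared there. In the combination against DMSO the oxidative phosphorylation subunits had a median of 0.14 (59 of 75 higher), near the 0.15 of the cytosolic members. The mitochondrial ribosomal proteins had 0.01 there (37 of 71 higher, where 48.1% of all genes were). Spearman's rho of coding length with the difference was -0.08 for 13cRA against DMSO and 0.07 for the combination against doxazosin over 76 members, where all genes gave 0.21 and -0.02 over 5806 genes with a coding length.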

How the data were processed

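The authors deposited raw counts (whole reads of each gene in each cell) for 60651 versioned Ensembl IDs and 1287 cells of 4 samples. Named in the submitters' processing notes are STAR 2.7.8a, fastp 0.23.3, Seurat 4.3.0, featureCounts and bcl2fastq. The annotation release and strandedness: not given in the sources used here. Cells with at least 500 genes and at most 25% mitochondrial counts were kept (1197). Doublets were not called, because single live cells were picked by imaging, per the labels' protocols. Sums of the kept cells were scaled to CPM. Differences are log2 of CPM + 1 between samples, for genes with a mean of at least 20 CPM. With 1 sample per treatment, and cells that are no replicates, no p-value is given. Intervals are 95% exact (Poisson or Clopper-Pearson). Transcripts and overlaps come from GENCODE 29 on GRCh38, which is not known to be the counting annotation. Members, lists and the naming rule were chosen with earlier results of these data known. Named are the 6 highest and 6 lowest members per comparison, the 3 and 3 for additivity, the 5 and 5 levels per kilobase, members under 20 CPM and a list of members with known roles; of the gene lists, fixed genes and those with the largest differences. Some genes that this rule covers are not reported here. Alternatives were TMM (edgeR 4.0.16) and DESeq2 1.42.0 scaling, per-cell means, a pseudocount of 5, other cell filters, thinning to 34000 counts, totals without mitochondrial genes and no minimum level; matched cells and members with under 5% overlap were added after seeing the data. Scripts were tested on simulated data (Python, R 4.3.3).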

Additional observations from a re-analysis of the deposited data

Results flagged for a closer look

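The median of the members with doxazosin had opposite signs in both backgrounds, 0.02 without 13cRA and -0.04 with it, a change of -0.063. This difference was not tested. Members listed below 20 CPM also went in opposite directions: RPS10 with 13cRA (0.71 without and -0.37 with doxazosin) and with doxazosin (0.39 without and -0.69 with 13cRA), a change of -1.08 in both readings, and RPL36A with 13cRA (0.65 and -0.26) and with doxazosin (0.23 and -0.68), a change of -0.90. None of these differences was tested. RPS10 rests on 131 to 231 counts per library and RPL36A on 259 to 490, and both have most of their transcript covered by a readthrough gene.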

How the results depend on the processing

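The median for 13cRA against DMSO was -0.13 under TMM and -0.091 under DESeq2 scaling, opposite to 0.20 with totals. It was 0.12 with per-cell means, 0.11 with no cell filter, 0.12 in thinned cells, 0.070 in cells matched in counts and 0.023 in cells matched in detected genes. In the same order of 7 settings, the combination against DMSO gave 0.13, 0.10, 0.14, 0.12, 0.11, 0.12 and 0.10, and against doxazosin 0.10, 0.046, 0.16, 0.099, 0.13, 0.12 and 0.073. The combination against 13cRA gave 0.27 (TMM), 0.21 (DESeq2), 0.072 (matched counts) and 0.11 (matched genes), against -0.04, and doxazosin against DMSO 0.069 with DESeq2. The departure from additivity turned to 0.23 (TMM), 0.13 (DESeq2), 0.033 (per-cell means), 0.074 (matched counts) and 0.085 (matched genes), and was -0.022 with no cell filter, -0.025 in thinned cells and -0.13 without mitochondrial genes. The causes were not tested.

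The 4 members at least 1.5-fold higher with 13cRA became 0 with TMM, DESeq2, per-cell means, thinning and either matching, 1 with no cell filter and 7 with no minimum level. The 1 lower member became 2 with TMM, DESeq2 or no minimum, and 0 in cells matched in genes or among members under 5% overlap. The 1 higher in the combination than in 13cRA became 4 with TMM, 3 with DESeq2, and 0 with a pseudocount of 5, without mitochondrial genes, in cells matched in genes or under 5% overlap. With no minimum level 1 member was lower with doxazosin, 1 in the combination against DMSO and 2 in the combination against 13cRA. Shares of all genes past 1.5-fold were not counted under these settings, so these counts have no background and describe the processing only.

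The share of counts, in the order DMSO, 13cRA, doxazosin and combination, was 7.82, 8.74, 7.72 and 8.49% in thinned cells, 7.47, 8.06, 7.46 and 8.12% as the median over cells, 8.81, 10.6, 8.86 and 9.75% without mitochondrial genes and 7.64, 8.42, 7.76 and 8.36% with no cell filter. It was 7.81, 8.30, 7.73 and 8.42% in cells matched in counts and 7.97, 8.04, 7.99 and 8.54% in cells matched in genes. The likeness of the 13cRA differences (rho 0.61) was 0.73 with per-cell means and 0.29 in cells matched in genes.

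Members below 20 CPM turned sign in small subsets of cells. RPL3L with 13cRA was -0.18 in thinned cells and -0.22 in cells matched in counts. In cells matched in genes RPL36A was -0.089 with 13cRA against DMSO. For the combination against 13cRA RPL36A was 0.23 (matched counts) and 0.0052 (matched genes) and RPS10 0.77 (matched genes). Departures from additivity were 0.71 and 0.79 for RPL36A. No paired analysis was possible because each treatment has 1 sample, which also means that no sample could be left out.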
